A study of Mus musculus with 6 samples.

Results

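JT003, a peptide agonist of both adiponectin receptors, was given to mice with carbon tetrachloride (CCl4) liver fibrosis, and the liver RNA of this group was compared here with CCl4 liver RNA that no single deposited library holds. A table of the study gives, for each gene, a CCl4 count pooled over unnamed libraries. That the deposited CCl4 library is one part of the pool was inferred from the values: the pooled count fell below that library for 24 genes only, by 0.99 counts at most. The count of the CCl4 library was subtracted from the pooled count gene by gene, values below 0 were set to 0, and what remained (the rest of the CCl4 pool) was compared with the JT003 library. The comparison therefore used 2 of the 6 samples of the series, and the CCl4 library itself was not in the ratio. Of 18419 genes listed, 14594 had at least 10 counts in the JT003 library or the rest and were compared. All livers were from male mice, C57BL/6 by the labels and C57BL/6J by the study's methods, that were fasted before sacrifice. An age of 6 to 8 weeks is given for the mice used, and the age at which livers were taken, after repeated CCl4 dosing, was not stated. The groups used were corn oil (control), CCl4 in corn oil, and CCl4 with JT003, injected into the peritoneum. Each group had 1 deposited library. Whether a library held RNA of 1 mouse or of several was not stated in the sources used here. Nor was the time of day at which livers were taken, the time since the last CCl4 dose, or how many libraries the pool held.

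CCl4 is turned into a reactive radical by Cyp2e1 in the hepatocytes around the central vein, which die and are replaced by division of surviving hepatocytes. Repeated dosing activates hepatic stellate cells, which then lay down fibrillar collagen, and draws in macrophages that clear debris and remodel the matrix. Adiponectin acts in the liver through Adipor1 and Adipor2, which are known for signalling to AMPK and PPARα and so to fatty acid oxidation.

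The counts summed to 19374236 in the JT003 library, 39781089 in the rest, 20156841 in the CCl4 library and 19409752 in the corn oil library, so that the rest was 1.97 times as deep as the CCl4 library. Levels are given as CPM, counts per 1000000 counts of the library size scaled by TMM factors. Genes were called higher or lower when JT003 differed from the rest by a log2 ratio of at least 1 and the 95% exact counting interval of the ratio did not hold 0. These words are kept for called genes, and the interval, given in parentheses after a log2 ratio, covers counting error only. With 1 library and 1 remainder no error between mice could be estimated, and the comparison is one of these RNA pools. The livers were rich in hepatocyte RNA (Alb took 5.75% to 8.51% of the counts). The pancreatic gene Prss2 had 1 count at most and the adipocyte hormone gene Adipoq was at 0.66 CPM or below. Other markers of these tissues had more. Cela1 of the pancreatic list was at 8.76 CPM in corn oil, 5.99 and 6.85 in the CCl4 library and the rest, and 5.97 in JT003. The 7 adipocyte markers found summed to 90.43 CPM in corn oil, 20.45 and 38.36 in the CCl4 library and the rest, and 20.82 in JT003.

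JT003 was higher than the rest for 353 genes, which is 2.42% of those compared, and lower for 801, which is 5.49%. The median log2 ratio of all genes compared was -0.02, with 5% of genes below -1.11 and 5% above 0.75. JT003 set against the CCl4 library by the same rule was higher for 595 of 13785 genes (4.32%) and lower for 560 (4.06%). These comparisons share the JT003 library, and their values are set side by side below and not as separate evidence. A measure of how far CCl4 liver RNA without JT003 differed within the pool came from the CCl4 library set against the rest: it was higher for 76 of 14547 genes (0.522%) and lower for 517 (3.55%). The rest stood apart from the 3 libraries in several red blood cell genes and some neutrophil genes, which are described with their values further on. Many genes lay close to the threshold. With the whole pooled column, which by this inference holds the CCl4 library, in place of the rest, Acot1, Acot4, Adgre1, Asl, Cd34, Cd3d, Cyp4a10, Gpc3, Orm2, S100a8, Sqle and Vwf were among the genes named below that were no longer called. A count of called genes in a list is to be read beside the shares of all genes called, 2.42% higher and 5.49% lower. In the comparison with the CCl4 library those shares were 4.32% and 4.06%. A single called gene in a list is given as a value of that gene, not as a result about its list. There were 77 genes called higher at log2 ratios of 1 to 1.1 and 95 uncalled at 0.9 to 1, and 118 called lower at -1.1 to -1 beside 141 uncalled at -1 to -0.9.

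**Figure D1:**
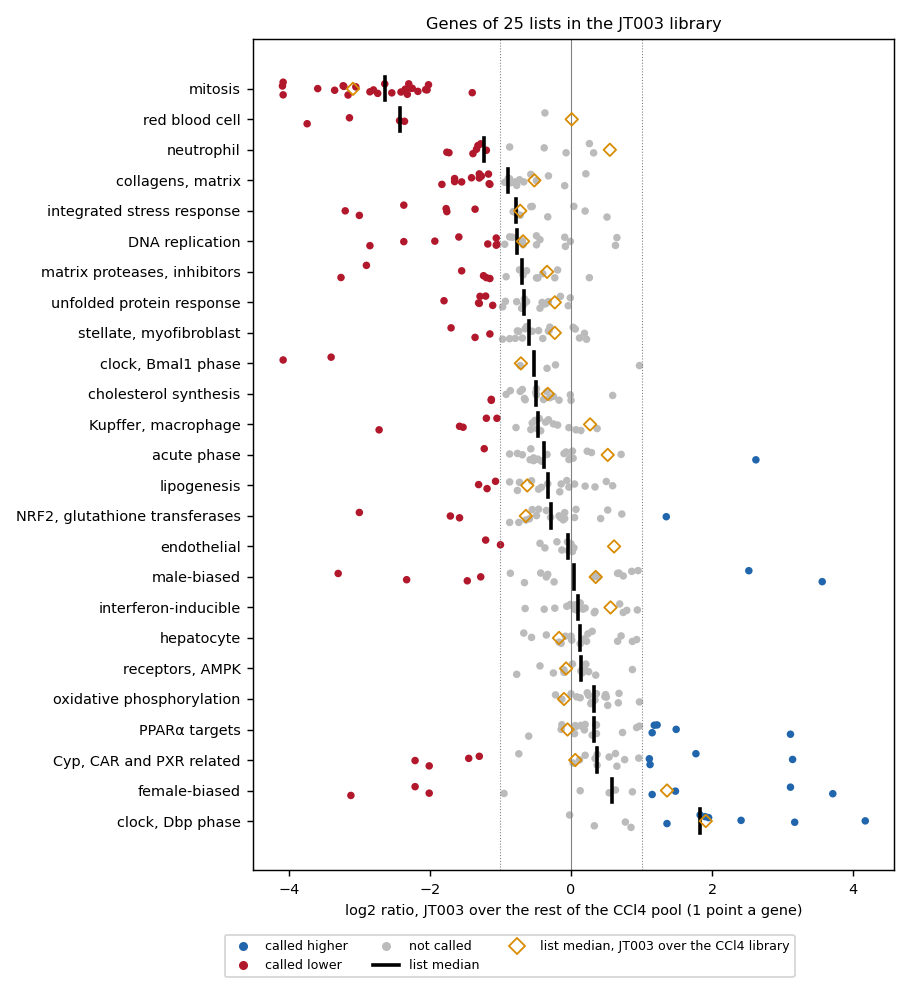
Log2 ratio of JT003 over the rest of the CCl4 pool (x axis) for the genes of 25 lists (y axis), 1 point a gene, blue where called higher, red where called lower and grey where not called. Black bars are list medians and open diamonds the list medians of JT003 over the CCl4 library, which stand apart from the bars for red blood cell (-2.43 against the rest), neutrophil (-1.24) and endothelial genes (-0.05) and lie near them for mitosis (-2.64 and -3.09) and Dbp-phase clock genes (1.83 and 1.91).

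All 25 mitosis genes were lower in JT003 than in the rest, at log2 ratios from -4.09 to -1.40 with a median of -2.64, where 5.49% of all genes were lower. Against the CCl4 library all 25 were lower too, with a median of -3.09, where 4.06% of all genes were. Mki67, the proliferation marker, was at 1.32 CPM in corn oil, 45.2 in the CCl4 library, 46.4 in the rest and 5.09 in JT003, a log2 ratio of -3.16 (-3.49 to -2.90). Its JT003 level lay below both CCl4 values, which were alike, and above corn oil. Ccnb1, the cyclin that drives entry into mitosis, was at 0.6 CPM in corn oil, 30.8 in the CCl4 library, 17.9 in the rest and 0.97 in JT003, a log2 ratio of -4.08 (-4.93 to -3.57). Cdc20, an activator of the anaphase-promoting complex, was at 1.02 CPM in corn oil, 59.85 in the CCl4 library, 30.3 in the rest and 1.7 in JT003, a log2 ratio of -4.08 (-4.69 to -3.67) against the rest and -5.06 against the CCl4 library. The CCl4 values of both genes differed among themselves, yet JT003 was below each of them. Ttk, a spindle checkpoint kinase, had 3 counts in corn oil, 125 and 171 in the CCl4 library and the rest, and 5 in JT003, a log2 ratio of -3.59 (-5.68 to -2.79). Bub1, another checkpoint kinase, had 0 counts in corn oil, 80 and 137 in the CCl4 library and the rest, and 2 in JT003, so that its ratio rests on 2 counts in JT003 and its interval was wide, -4.09 (-8.11 to -3.16). The median level of the 25 genes was 0.72 CPM in corn oil, 22.7 in the CCl4 library, 13.1 in the rest and 1.70 in JT003. In whole liver, fewer dividing cells and less of these RNAs per cell cannot be told apart.

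**Figure D2:**
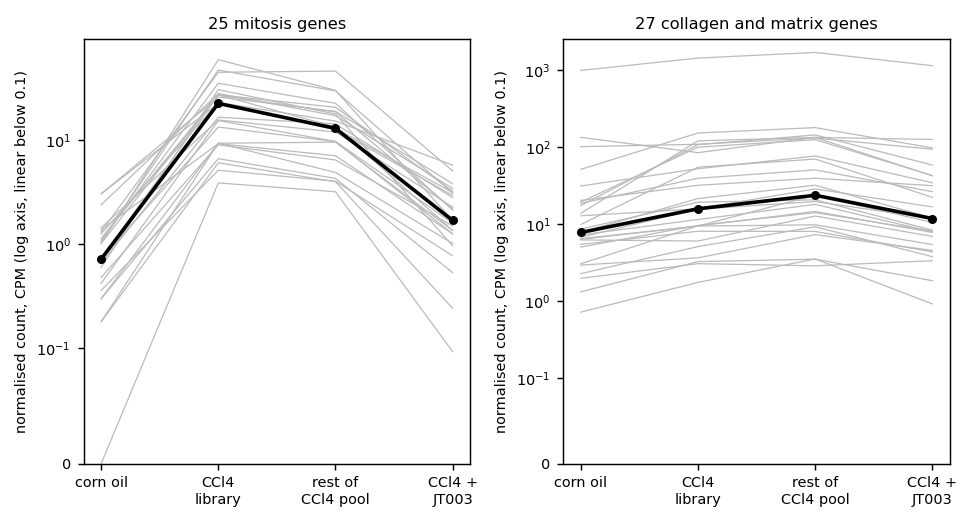
Normalised counts (CPM, log axis that is linear below 0.1) of the 25 mitosis genes (left) and the 27 collagen and matrix genes (right) in the corn oil library, the CCl4 library, the rest of the CCl4 pool and the JT003 library, 1 grey line a gene and the median in black. The mitosis median was 13.1 in the rest and 1.70 in JT003, and the matrix median 23.7 and 11.8.

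Other genes of cell division were among the 10 lowest of JT003 over all genes with at least 100 counts. They were Nuf2 of the kinetochore (0.24 CPM in corn oil, 7.69 and 6.11 in the CCl4 library and the rest, and 0.291 in JT003), Racgap1 of the central spindle (0.66 CPM in corn oil, 24.8 and 15.6 in the CCl4 library and the rest, and 0.97 in JT003), Cdkn3, a phosphatase of Cdk1 and Cdk2 (0.3 CPM in corn oil, 15.3 and 12.1 in the CCl4 library and the rest, and 0.776 in JT003), and Knstrn of the spindle (0.72 CPM in corn oil, 38.7 and 24.1 in the CCl4 library and the rest, and 1.79 in JT003). Their log2 ratios were -4.00, -3.87, -3.80 and -3.68. In each the JT003 level was below both CCl4 values and close to corn oil.

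Promoters of many genes that peak in mitosis hold CCAAT boxes, bound by NF-Y, and a cell cycle homology region read by the DREAM complex, and for this reason the promoters of the 5 named mitosis genes are shown. The sequences are from RefSeq (GRCm38.p6), while the counts rest on mm9, and each covers the 210 bases before the start of the gene. Capitals mark CCAAT or its reverse complement ATTGG, and TTTGAA or its reverse complement TTCAAA, none of which overlap here. Mki67 is at chr7:135716380-135716589, minus strand, Bub1 at chr2:127831860-127832069, minus strand, Cdc20 at chr4:118437344-118437553, minus strand, Ccnb1 at chr13:100786487-100786696, minus strand, and Ttk at chr9:83834479-83834688, plus strand.
Mki67: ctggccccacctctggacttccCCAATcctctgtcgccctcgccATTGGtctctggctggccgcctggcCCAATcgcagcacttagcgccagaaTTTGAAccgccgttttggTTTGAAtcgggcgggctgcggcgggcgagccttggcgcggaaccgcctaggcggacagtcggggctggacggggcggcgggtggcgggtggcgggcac
Bub1: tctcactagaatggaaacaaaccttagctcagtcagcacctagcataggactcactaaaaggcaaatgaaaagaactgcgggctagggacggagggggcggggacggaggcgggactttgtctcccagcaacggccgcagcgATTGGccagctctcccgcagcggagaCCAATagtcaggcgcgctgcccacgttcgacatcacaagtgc
Cdc20: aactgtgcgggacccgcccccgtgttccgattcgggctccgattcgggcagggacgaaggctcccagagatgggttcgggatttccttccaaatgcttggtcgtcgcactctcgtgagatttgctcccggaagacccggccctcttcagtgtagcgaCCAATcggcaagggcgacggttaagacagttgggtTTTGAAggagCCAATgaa
Ccnb1: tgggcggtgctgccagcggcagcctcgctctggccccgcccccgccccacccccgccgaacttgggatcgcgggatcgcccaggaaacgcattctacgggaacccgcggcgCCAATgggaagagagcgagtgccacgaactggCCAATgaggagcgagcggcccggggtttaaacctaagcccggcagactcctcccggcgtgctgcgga
Ttk: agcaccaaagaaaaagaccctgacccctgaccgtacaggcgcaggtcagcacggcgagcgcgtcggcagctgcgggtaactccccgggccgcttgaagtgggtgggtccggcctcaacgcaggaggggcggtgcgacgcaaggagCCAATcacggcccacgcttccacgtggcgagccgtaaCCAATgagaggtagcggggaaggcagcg
Mki67 held 3 CCAAT matches and 2 TTTGAA matches, and Cdc20 a TTTGAA match at -18 from the start between CCAAT matches at -53 and -8. Bub1 and Ccnb1 held a pair of CCAAT matches each and no TTTGAA. In Ttk the TTTGAA letters lay after the start, at 8, outside the stretch shown. Over the whole window of 250 bases before to 50 after the start, CCAAT was found in 18 of the 20 mitosis genes with a promoter in the table and in 41.1% of all 27025 genes, and TTTGAA in 15 of 20 and in 20.2%. The 15 genes with TTTGAA held both, as did 8.97% of all genes. These are matches of letters and not sites of binding.

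DNA replication genes were less uniform. Of 22 compared, 8 were lower, where 5.49% of all genes were, and none higher (median log2 ratio -0.77). With the CCl4 library, 7 of 21 were lower (median -0.68), where 4.06% of all genes were. Rrm2, the regulated subunit of ribonucleotide reductase, was at 5.58 CPM in corn oil, 29.3 in the CCl4 library, 29.9 in the rest and 4.08 in JT003, a log2 ratio of -2.85 (-3.21 to -2.56). Mcm5 of the replicative helicase was at 1.68 CPM in corn oil, 8.86 and 8.84 in the CCl4 library and the rest, and 2.86 in JT003, a log2 ratio of -1.59 (-2.05 to -1.23). Mcm2 of the same helicase was at 2.7 CPM in corn oil, 6.04 and 6.46 in the CCl4 library and the rest, and 3.59 in JT003, and was not called (log2 ratio -0.83, interval -1.24 to -0.47). Gins2, another helicase component, was lower, at -2.37. In these genes both CCl4 values were above JT003. Pcna, the polymerase clamp, was at 23 CPM in corn oil, 27 and 25.1 in the CCl4 library and the rest, and 23.5 in JT003, and was not called, and Tk1 was at 15 CPM in corn oil, 29.9 and 18.1 in the CCl4 library and the rest, and 27.9 in JT003, where the rest was the lower of the CCl4 values.

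Of 14 p53 targets and cell cycle inhibitors, 2 were lower, where 5.49% of all genes were, and none higher, with a median of -0.24. Cdkn1a, the p21 inhibitor of cyclin-dependent kinases, was at 63 CPM in corn oil, 156 in the CCl4 library, 172 in the rest and 38 in JT003, a log2 ratio of -2.18 (-2.29 to -2.07) against the rest and -2.04 against the CCl4 library. JT003 lay below corn oil here, and the CCl4 values were alike. Btg2, an antiproliferative p53 target, was at 22.8 CPM in corn oil, 32.6 and 90.2 in the CCl4 library and the rest, and 34.1 in JT003, lower against the rest (-1.40) but level with the CCl4 library (0.07). Mdm2, Bax, Zmat3, Fas and Ccng1, direct p53 targets, were not called, at log2 ratios from -0.22 to 0.22. Phlda3, Trp53inp1 and Sesn2 were further from 0, at -0.73, -0.66 and -0.33, and were not called either. In the whole list 11 log2 ratios were below 0 and 3 above.

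Collagen and matrix genes were lower in JT003 for 11 of 27 genes, where 5.49% of all genes were. None was higher, and the median was -0.89. Against the CCl4 library 4 were lower, with a median of -0.52, where 4.06% of all genes were. Col1a1, a chain of type I collagen, was at 13.9 CPM in corn oil, 121 in the CCl4 library, 134 in the rest and 42.5 in JT003, a log2 ratio of -1.65 (-1.76 to -1.55) against the rest and -1.51 against the CCl4 library. Its partner chain Col1a2 was at 19.4 CPM in corn oil, 99.88 and 125 in the CCl4 library and the rest, and 42.8 in JT003, a log2 ratio of -1.55 (-1.65 to -1.45). JT003 lay between corn oil and either CCl4 value for both chains, and the CCl4 values differed less from each other than from JT003. Nid1, which links laminin to type IV collagen in basement membranes, was at 9.9 CPM in corn oil, 54.9 and 70.2 in the CCl4 library and the rest, and 22.3 in JT003, a log2 ratio of -1.65 (-1.80 to -1.51), and Eln, elastin, was at 8.64 CPM in corn oil, 19.3 and 20.7 in the CCl4 library and the rest, and 8.35 in JT003, a log2 ratio of -1.30 (-1.56 to -1.08). Both were also lower against the CCl4 library. Lox, which crosslinks collagen, was at 0.72 CPM in corn oil, 1.75 and 3.53 in the CCl4 library and the rest, and 0.922 in JT003, a log2 ratio of -1.83 (-2.71 to -1.24) against the rest. Its CCl4 library value was nearer to JT003, and it was not called there (-0.86). Col3a1, Col4a1, Col6a2, Col6a3, Fbn1 and Lum were also lower against the rest alone, at -1.41 to -1.15, and each had a higher level in the rest than in the CCl4 library. Sparc (-0.87) and Fn1 (-0.57) were not called, and the small proteoglycans Dcn and Bgn were at -0.09 and -0.49.

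Among matrix proteases and their inhibitors, 6 of 16 were lower, where 5.49% of all genes were, and none higher (median -0.70). With the CCl4 library, 1 was lower (median -0.34), where 4.06% of all genes were. Mmp12, the macrophage elastase, was at 0 CPM in corn oil, 8.52 in the CCl4 library, 17.7 in the rest and 2.28 in JT003, a log2 ratio of -2.90 (-3.41 to -2.53) against the rest and -1.86 against the CCl4 library. The rest was the highest of the 4 values and JT003 below both CCl4 values. Plat, the tissue plasminogen activator, was at 0.78 CPM in corn oil, 1.66 and 4.02 in the CCl4 library and the rest, and 1.31 in JT003 (log2 ratio -1.55, interval -2.26 to -1.03), with the rest again the highest, and was not called against the CCl4 library (-0.32). Mmp8 and Mmp13, collagenases, were below 1 CPM in every pool. Timp1, an inhibitor of matrix proteases, was at 0.72 CPM in corn oil, 1.85 and 1.99 in the CCl4 library and the rest, and 1.16 in JT003, and was not called (log2 ratio -0.73, interval -1.49 to -0.10).

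Stellate cell and myofibroblast markers were mostly not called: 3 of 22 were lower, where 5.49% of all genes were, with a median of -0.59. With the CCl4 library, 2 were lower (median -0.23), where 4.06% of all genes were. Acta2, the smooth muscle actin of activated stellate cells, was at 9.9 CPM in corn oil, 5.26 in the CCl4 library, 7.32 in the rest and 2.18 in JT003, a log2 ratio of -1.70 (-2.23 to -1.29). Corn oil was the highest of the 4 values, so Acta2 was not above it in either CCl4 pool. Tagln, another contractile protein, was at 11.7 CPM in corn oil, 14.9 and 15.4 in the CCl4 library and the rest, and 6.89 in JT003 (log2 ratio -1.15, interval -1.43 to -0.89), and Tgfb3 was at 1.8 CPM in corn oil, 3.02 and 4.02 in the CCl4 library and the rest, and 1.5 in JT003 (log2 ratio -1.36, interval -2.02 to -0.86). JT003 was the lowest of the 4 values in all 3 genes. Des, Pdgfrb, Lrat, Hand2 and Lhx2, which mark the stellate lineage, had log2 ratios from -0.40 to 0.22. The summed level of the 22 markers was 474.7 CPM in the rest and 361 in JT003.

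Of 20 Kupffer cell and macrophage markers, 5 were lower against the rest, where 5.49% of all genes were, and none higher (median -0.47). With the CCl4 library, 2 were lower and 2 higher (median 0.27), where 4.06% and 4.32% of all genes were. Gpnmb, a marker of lipid-laden and scar-associated macrophages, was at 0.84 CPM in corn oil, 41 in the CCl4 library, 74.6 in the rest and 11.3 in JT003, a log2 ratio of -2.72 (-2.93 to -2.54) against the rest and -1.86 against the CCl4 library. Lgals3 of the same macrophage state was at 2.46 CPM in corn oil, 23.6 and 33 in the CCl4 library and the rest, and 11.3 in JT003 (log2 ratio -1.53, interval -1.74 to -1.34). Trem2, a lipid receptor of that state, was at 0.36 CPM in corn oil, 9.4 and 15.4 in the CCl4 library and the rest, and 5.09 in JT003 (log2 ratio -1.58, interval -1.91 to -1.30). JT003 lay between corn oil and both CCl4 values in these genes. Adgre1 and Cd68, general macrophage markers, were also lower against the rest, at -1.20 and -1.05. Against the CCl4 library Lgals3 was lower (-1.05), but Trem2 (-0.87), Adgre1 (-0.34) and Cd68 (-0.59) were not called. Cd9 and Vsig4 were not called against the rest, at -0.55 and -0.48. Clec4f, which marks resident Kupffer cells, was at 24.8 CPM in corn oil, 25.2 and 37.6 in the CCl4 library and the rest, and 41.3 in JT003, and was not called (log2 ratio 0.14, interval 0.02 to 0.26), and C1qa, C1qb, C1qc and Csf1r had log2 ratios from -0.45 to -0.32. Marco, a scavenger receptor, was at 2.46 CPM in corn oil, 7.84 and 47 in the CCl4 library and the rest, and 60.8 in JT003, with JT003 and the rest alike and the CCl4 library apart from them.

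Clock genes held the highest log2 ratio. In a liver clock, Bmal1 (Arntl) with Clock or Npas2 drives E-box genes such as Dbp and the Per genes, whose RNAs then peak when Arntl is low. Of 11 genes of the Dbp phase, 7 were higher in JT003, against 2.42% of all genes, and none was lower, with a median of 1.83. Against the CCl4 library 8 were higher, with a median of 1.91, where 4.32% of all genes were. Dbp, a D-box transcription factor, was at 49.5 CPM in corn oil, 4.67 in the CCl4 library, 5.12 in the rest and 93.7 in JT003, a log2 ratio of 4.17 (3.99 to 4.40). It had the largest log2 ratio among genes with at least 100 counts, with JT003 above corn oil and both CCl4 values low and alike. Per3, a repressor of the clock, was at 10.8 CPM in corn oil, 4.24 and 4.75 in the CCl4 library and the rest, and 43.6 in JT003 (log2 ratio 3.17, interval 2.98 to 3.42), and Ciart, another repressor, at 9.3 CPM in corn oil, 1.12 and 3.21 in the CCl4 library and the rest, and 17.4 in JT003 (log2 ratio 2.41, interval 2.15 to 2.74). Usp2, a rhythmic deubiquitinase, was at 28.7 CPM in corn oil, 20.9 and 24.9 in the CCl4 library and the rest, and 96.3 in JT003 (log2 ratio 1.95, interval 1.84 to 2.06). In these genes JT003 was the highest of the 4 values. Tef, Per2 and Nr1d2 were also higher, at 1.83, 1.90 and 1.36, whereas Nr1d1, the heme receptor Rev-erbα, was at 146 CPM in corn oil, 82.5 and 62.3 in the CCl4 library and the rest, and 61.3 in JT003, and was not called (log2 ratio -0.02, interval -0.12 to 0.07).

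Calls among genes of the Bmal1 phase were in the other direction. Of 6 genes, 2 were lower, where 5.49% of all genes were, and none higher, with a median of -0.53. Arntl was at 8.52 CPM in corn oil, 18.8 in the CCl4 library, 18.4 in the rest and 1.65 in JT003, a log2 ratio of -3.40 (-4.02 to -2.98), and Npas2 had 27 counts in corn oil, 179 and 241 in the CCl4 library and the rest, and 5 in JT003, a log2 ratio of -4.08 (-6.17 to -3.30). JT003 was far below both CCl4 values, which were alike for Arntl, and also below corn oil. Clock, Nfil3 and Cry1 had log2 ratios of -0.72, -0.34 and -0.22 and were not called. The hour of liver collection in each group was not stated in the sources used here, so that treatment and hour cannot be told apart for these genes.

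**Figure D3:**
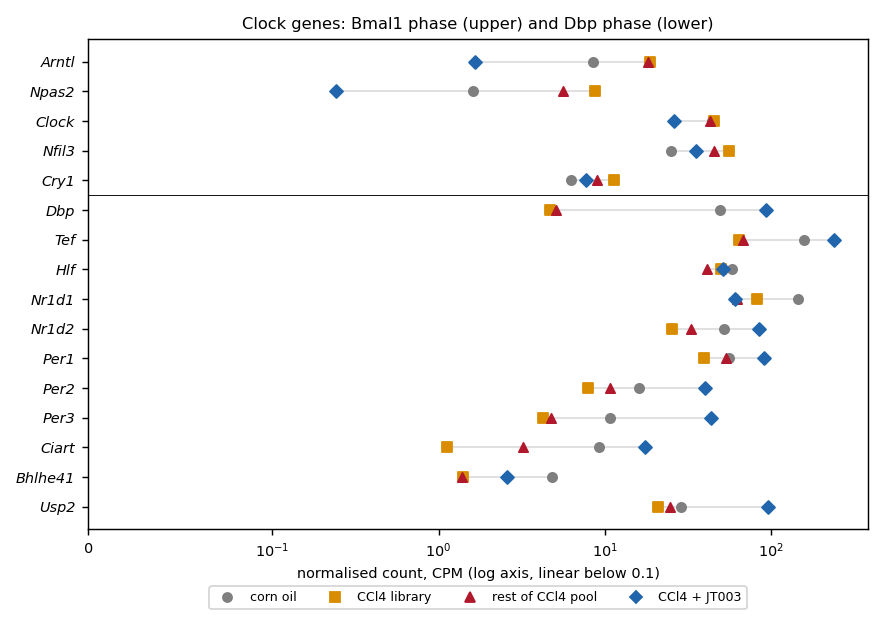
Normalised counts (CPM, x axis, log scale that is linear below 0.1) of 5 clock genes of the Bmal1 phase (above the line) and 11 of the Dbp phase (below it) in corn oil (grey circles), the CCl4 library (orange squares), the rest of the CCl4 pool (red triangles) and JT003 (blue diamonds). JT003 is lowest for Arntl at 1.65 and highest for Dbp at 93.7, and the CCl4 library and the rest lie close together for both.

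The E-box CACGTG, which Bmal1 and Clock bind, and the D-box TTATGTAA, which Dbp binds, were looked for in the promoters of these genes, and the promoters with several matches among the named genes are shown. Ciart is at chr3:95882229-95882438, minus strand and Per3 at chr4:151044666-151044875, minus strand (RefSeq, GRCm38.p6). Capitals mark CACGTG, which reads the same on both strands, in Ciart and TTATGTAA in Per3.
Ciart: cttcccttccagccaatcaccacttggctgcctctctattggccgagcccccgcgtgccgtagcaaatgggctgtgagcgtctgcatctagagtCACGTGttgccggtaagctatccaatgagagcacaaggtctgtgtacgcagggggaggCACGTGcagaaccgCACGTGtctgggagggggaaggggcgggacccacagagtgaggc
Per3: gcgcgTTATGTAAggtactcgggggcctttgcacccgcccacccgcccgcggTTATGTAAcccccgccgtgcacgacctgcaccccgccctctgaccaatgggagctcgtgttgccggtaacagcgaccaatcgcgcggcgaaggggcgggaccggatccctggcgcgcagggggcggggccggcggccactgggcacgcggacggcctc
Ciart held 3 E-box matches, starting at -116, -58 and -44 from the start, and Per3 held D-box matches at -205 and -158. Of 10 Dbp-phase genes with a promoter in the table, 4 held CACGTG in the whole window (Bhlhe41, Ciart, Per1 and Tef), as did 8.09% of all genes, and 1 held TTATGTAA, as did 1.11%. Dbp and Usp2 held neither in this window.

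Growth hormone acts on hepatocytes through STAT5 and sets many sex-dependent genes of mouse liver. Of 20 male-biased or STAT5-dependent genes, 2 were higher and 4 lower (median 0.04), where 2.42% and 5.49% of all genes were. Against the CCl4 library 4 were higher and 2 lower, where 4.32% and 4.06% of all genes were. Socs2 and Cish, feedback inhibitors that STAT5 induces, were both higher. Socs2 was at 32 CPM in corn oil, 14.4 in the CCl4 library, 5.31 in the rest and 63.8 in JT003, a log2 ratio of 3.56 (3.38 to 3.80), and Cish at 21.5 CPM in corn oil, 6.92 and 3.98 in the CCl4 library and the rest, and 23.2 in JT003 (log2 ratio 2.52, interval 2.29 to 2.81). Bcl6, a repressor that STAT5 holds down, was lower, at 15.1 CPM in corn oil, 61.4 in the CCl4 library, 41 in the rest and 8.05 in JT003, a log2 ratio of -2.33 (-2.59 to -2.12). JT003 was at the low end for Bcl6 and at the high end for Socs2, outside the range of the other 3 pools for each. Elovl3, a male-biased fatty acid elongase, was at 527 CPM in corn oil, 35.6 and 48.3 in the CCl4 library and the rest, and 4.8 in JT003 (log2 ratio -3.30, interval -3.63 to -3.04), and JT003 was the lowest here. The major urinary protein Mup3 was at 7742 CPM in corn oil, 1608 and 1281 in the CCl4 library and the rest, and 2141 in JT003, and was not called, and the Mup genes are near-identical copies between which the counting may split reads.

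Of 12 female-biased genes compared, 4 were higher and 3 lower (median 0.58), where 2.42% and 5.49% of all genes were. Against the CCl4 library 6 of 10 were higher and 2 lower (median 1.36), where 4.32% and 4.06% of all genes were. Cux2, a female-specific liver repressor, had 6 counts in corn oil, 6 and 13 in the CCl4 library and the rest, and 106 in JT003, a log2 ratio of 3.71 (3.24 to 5.04). The other 3 pools were near 0, and JT003 stood alone. Sult1e1, estrogen sulfotransferase, had 2 counts in corn oil, 5 and 122 in the CCl4 library and the rest, and 5 in JT003, a log2 ratio of -3.12 (-5.20 to -2.29), and here the rest stood alone. Cyp3a44 was lower (-2.01). Cyp3a41a had 4 counts in corn oil, 3 and 15 in the CCl4 library and the rest, and 0 in JT003, at least 2.41-fold lower in JT003 against a floor of 3 counts, and reads of these Cyp3a copies may be split. Cyp2b9, a female-biased Cyp gene, was at 0.06 CPM in corn oil, 5.5 and 2.67 in the CCl4 library and the rest, and 4.17 in JT003, and was not called.

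PPARα targets gave 5 of 22 higher, where 2.42% of all genes were, and none lower, with a median of 0.32. Against the CCl4 library 1 was higher and 1 lower, with a median of -0.05, where 4.32% and 4.06% of all genes were. The 5 were acyl-CoA thioesterases and fatty acid omega-hydroxylases. Acot3, a peroxisomal thioesterase, was at 21.1 CPM in corn oil, 45.1 in the CCl4 library, 14.4 in the rest and 125 in JT003, a log2 ratio of 3.11 (2.99 to 3.25) against the rest and 1.47 against the CCl4 library, and JT003 was the highest of the 4 values. Acot1 was at 306 CPM in corn oil, 202 and 86.4 in the CCl4 library and the rest, and 243 in JT003 (log2 ratio 1.49, interval 1.43 to 1.55) and Acot4 at 37.1 CPM in corn oil, 55.9 and 31.4 in the CCl4 library and the rest, and 71.3 in JT003 (log2 ratio 1.18, interval 1.08 to 1.29), with the rest lowest in each. Neither was called against the CCl4 library (0.27 and 0.35), and with the whole pooled column the log2 ratio of Acot1 was 0.98 and the log2 ratio of Acot4 was 0.87, both short of the threshold. Cyp4a10 was at 4276 CPM in corn oil, 1751 and 1020 in the CCl4 library and the rest, and 2259 in JT003 (log2 ratio 1.15, interval 1.13 to 1.17) and Cyp4a14 at 6470 CPM in corn oil, 2029 and 1398 in the CCl4 library and the rest, and 3254 in JT003 (log2 ratio 1.22, interval 1.20 to 1.24), where the CCl4 library lay between the rest and JT003, and neither was called against that library. The Acot and Cyp4a genes have near-identical neighbours, and their split is uncertain. The enzymes of mitochondrial and peroxisomal oxidation were not called. Ehhadh, Hadha, Hadhb and Cpt1a had log2 ratios of 0.06, 0.05, 0.14 and -0.13, and Acadl and Acadm were at 0.36 and 0.30.

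**Figure D4:**
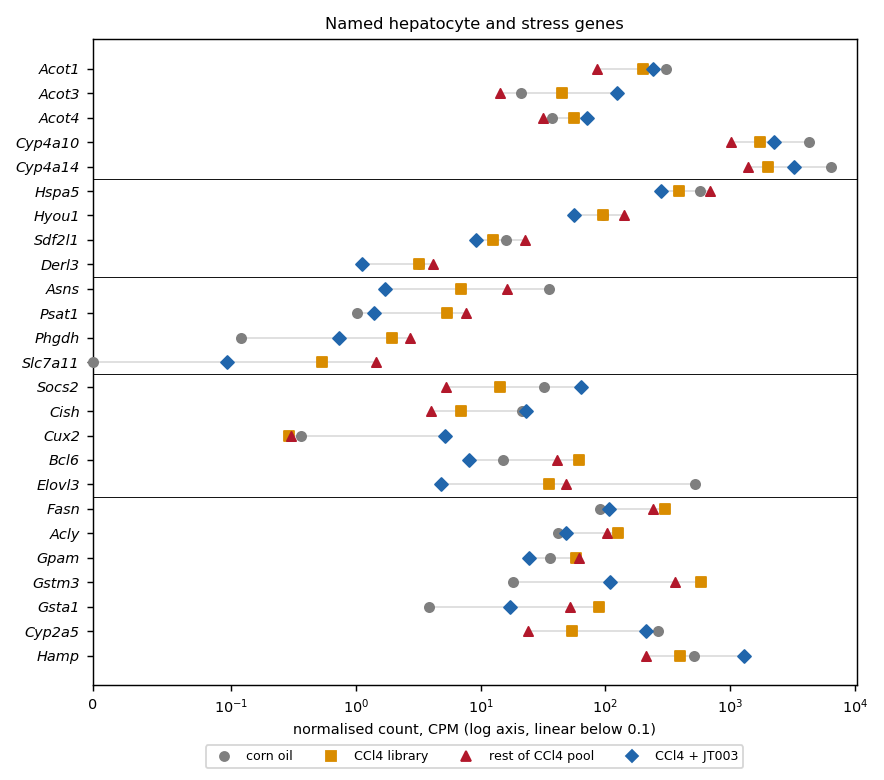
Normalised counts (CPM, x axis, log scale that is linear below 0.1) of named genes, in 5 blocks that hold, from the top, PPARα targets, ER chaperones, amino acid genes of the stress response, growth hormone genes, and lipid, glutathione, drug and iron genes. Colours are grey for corn oil, orange for the CCl4 library, red for the rest and blue for JT003, which is lowest of the 4 for Hspa5 at 282 and highest for Hamp at 1296.

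Fatty acid and triglyceride synthesis had 3 of 19 genes lower, where 5.49% of all genes were, and none higher (median -0.33). With the CCl4 library, 5 were lower (median -0.62), where 4.06% of all genes were. Fasn, fatty acid synthase, was at 90.4 CPM in corn oil, 302 in the CCl4 library, 244 in the rest and 107 in JT003, a log2 ratio of -1.19 (-1.25 to -1.12) against the rest and -1.5 against the CCl4 library. Acly, which makes cytosolic acetyl-CoA, was at 41.9 CPM in corn oil, 128 and 103 in the CCl4 library and the rest, and 48.8 in JT003 (log2 ratio -1.07, interval -1.17 to -0.97), and Gpam, which starts triglyceride synthesis, at 36.1 CPM in corn oil, 58.1 and 61.2 in the CCl4 library and the rest, and 24.6 in JT003 (log2 ratio -1.31, interval -1.45 to -1.18). JT003 was nearer to corn oil than either CCl4 value was in these 3 genes. Of 19 cholesterol synthesis genes, 2 were lower (median -0.49), where 5.49% of all genes were. Nsdhl was at 16 CPM in corn oil, 40.1 and 36.2 in the CCl4 library and the rest, and 16.4 in JT003 (log2 ratio -1.13, interval -1.31 to -0.97), with JT003 near corn oil, and Sqle at 10.5 CPM in corn oil, 27.3 and 46.6 in the CCl4 library and the rest, and 21.3 in JT003 (log2 ratio -1.13, interval -1.28 to -0.98), with the CCl4 library nearer to JT003 than the rest. Hmgcs1, an early enzyme of the pathway, was at 77 CPM in corn oil, 163 and 176 in the CCl4 library and the rest, and 96.8 in JT003, and was not called (log2 ratio -0.86, interval -0.94 to -0.79).

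In glucose metabolism 1 of 13 genes was lower (median -0.20), near the 5.49% of all genes, and 4 were lower against the CCl4 library (median -0.31), where 4.06% of all genes were. It was Ppp1r3c, a subunit that brings phosphatase 1 to glycogen, at 37.1 CPM in corn oil, 40.8 in the CCl4 library, 38.6 in the rest and 13.5 in JT003 (log2 ratio -1.51, interval -1.70 to -1.33), with JT003 below the other 3. G6pc, the last enzyme of glucose release, was at 489.9 CPM in corn oil, 836 and 674 in the CCl4 library and the rest, and 371 in JT003, and was not called against the rest (-0.86), though called lower against the CCl4 library (-1.17), as were Pklr (-1.63) and Pygl (-1.1). Of 17 bile acid genes 1 was higher. Cyp7a1, the rate-limiting enzyme of bile acid synthesis, was at 83.2 CPM in corn oil, 29.5 in the CCl4 library, 29.5 in the rest and 59.8 in JT003, a log2 ratio of 1.02 (0.91 to 1.13) and close to the threshold. The CCl4 values of Cyp7a1 were alike, and JT003 lay between them and corn oil.

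Genes of the pericentral zone, where CCl4 is activated, gave 2 of 13 higher and none lower (median -0.23). Of all genes, 2.42% were higher. Cyp2e1, the enzyme that activates CCl4, was at 9081 CPM in corn oil, 1904 in the CCl4 library, 1433 in the rest and 3773 in JT003, a log2 ratio of 1.40 (1.38 to 1.41) against the rest and 0.99 against the CCl4 library, which was just outside the threshold. JT003 was above both CCl4 values and below corn oil. Slc1a2, a glutamate transporter of the same zone, had 3513 counts in corn oil, 6 and 34 in the CCl4 library and the rest, and 42 in JT003, a log2 ratio of 1.26 (0.67 to 2.05), with both CCl4 values near 0 and JT003 still far below corn oil. Glul, glutamine synthetase of the innermost pericentral cells, was at 892 CPM in corn oil, 95.5 and 88.2 in the CCl4 library and the rest, and 126 in JT003, and was not called (log2 ratio 0.51, interval 0.44 to 0.58). Of 14 periportal genes, Asl of the urea cycle was higher, at 1471 CPM in corn oil, 564 and 419 in the CCl4 library and the rest, and 839.6 in JT003 with a log2 ratio at the threshold (log2 ratio 1.0, interval 0.97 to 1.03), and Cdh1, E-cadherin, was lower at 19.6 CPM in corn oil, 63.1 and 57.5 in the CCl4 library and the rest, and 28 in JT003 (log2 ratio -1.04, interval -1.17 to -0.91). Cps1, the first enzyme of the urea cycle, was at 2831 CPM in corn oil, 1924 and 2318 in the CCl4 library and the rest, and 1469 in JT003, and was not called.

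Cyp genes related to the receptors CAR and PXR were called in both directions. Of 20, 4 were higher and 4 lower (median 0.37), where 2.42% and 5.49% of all genes were. With the CCl4 library, 2 of 19 were higher and 4 lower (median 0.06), where 4.32% and 4.06% of all genes were. Cyp2a5, a coumarin hydroxylase, was at 264 CPM in corn oil, 54 in the CCl4 library, 24 in the rest and 213 in JT003, a log2 ratio of 3.14 (3.05 to 3.25) against the rest and 1.98 against the CCl4 library. JT003 was near corn oil, with both CCl4 values below. Its near-identical copy Cyp2a4 was at 0 CPM in corn oil, 45.9 and 7.67 in the CCl4 library and the rest, and 11.2 in JT003, so the split of reads between them is uncertain. Cyp2c38 was at 42.4 CPM in corn oil, 9.74 and 3.65 in the CCl4 library and the rest, and 12.7 in JT003 (log2 ratio 1.77, interval 1.5 to 2.09) and was not called against the CCl4 library (0.38). Cyp2c37 and Nr1i3, the CAR receptor itself, were higher against the rest alone, at 1.12 and 1.11. Among the lower genes, Cyp2c55 was at 1.14 CPM in corn oil, 21.5 and 15.3 in the CCl4 library and the rest, and 5.53 in JT003 (log2 ratio -1.45, interval -1.77 to -1.18) and was also lower against the CCl4 library (-1.94). Cyp2c70 was at 154 CPM in corn oil, 371 and 469 in the CCl4 library and the rest, and 189.7 in JT003 (log2 ratio -1.30, interval -1.36 to -1.26), and was just short of the threshold against the CCl4 library (-0.97). The other 2 lower genes were Cyp3a44 and Cyp3a41a, given above.

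Chaperones of the endoplasmic reticulum and other genes of the unfolded protein response were all below 0 in log2 ratio, from -1.80 to -0.01. Of these 21 genes, 6 were lower (median -0.67), where 5.49% of all genes were. Against the CCl4 library 1 was lower (median -0.23), near the 4.06% of all genes. Hspa5, the chaperone BiP, was at 571 CPM in corn oil, 388 in the CCl4 library, 688 in the rest and 282 in JT003, a log2 ratio of -1.29 (-1.33 to -1.25) against the rest and -0.46 against the CCl4 library. The rest was the highest of the 4 values, the CCl4 library was below corn oil, and JT003 was the lowest. Hyou1 was at 95.6 CPM in corn oil, 96.3 and 140.5 in the CCl4 library and the rest, and 56.4 in JT003. Sdf2l1 was at 15.9 CPM in corn oil, 12.6 and 22.8 in the CCl4 library and the rest, and 9.17 in JT003. They had log2 ratios of -1.31 and -1.30 and the same order of the CCl4 pools and JT003. Derl3, of the degradation channel, was at 3.18 CPM in corn oil, 3.21 and 4.12 in the CCl4 library and the rest, and 1.12 in JT003 (log2 ratio -1.80, interval -2.58 to -1.25) and was the member called against both. Herpud1 and Xbp1 were at -0.01 and -0.04.

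The integrated stress response gave 6 of 15 lower, where 5.49% of all genes were, and none higher (median -0.78). With the CCl4 library, 5 were lower and 1 higher (median -0.72), where 4.06% and 4.32% of all genes were. The genes that were lower against both make or import amino acids. Asns, asparagine synthetase, was at 35.4 CPM in corn oil, 6.92 in the CCl4 library, 16.4 in the rest and 1.7 in JT003, a log2 ratio of -3.20 (-3.81 to -2.78). Psat1 of serine synthesis was at 1.02 CPM in corn oil, 5.36 and 7.7 in the CCl4 library and the rest, and 1.41 in JT003 (log2 ratio -2.37, interval -3.05 to -1.90). Phgdh, which starts that pathway, was at 0.12 CPM in corn oil, 1.95 and 2.71 in the CCl4 library and the rest, and 0.728 in JT003 (log2 ratio -1.77, interval -2.78 to -1.12). JT003 was below both CCl4 values in each, while corn oil was the highest for Asns and low for the serine genes. Slc7a11, the cystine transporter, had 0 counts in corn oil, 11 and 62 in the CCl4 library and the rest, and 2 in JT003, and rests on 2 counts in JT003 (log2 ratio -3.0, interval -6.98 to -1.99). Ddit3, the CHOP factor, was at 6.54 CPM in corn oil, 8.04 and 14.5 in the CCl4 library and the rest, and 8.73 in JT003, and was not called (log2 ratio -0.72, interval -0.97 to -0.49), and Atf4 itself was at 99.4 CPM in corn oil, 90.9 and 93.1 in the CCl4 library and the rest, and 107 in JT003. Of 13 heat shock genes 2 were lower, where 5.49% of all genes were. They were the near-identical pair Hspa1a (-1.05) and Hspa1b (-1.20). Hspa1b was at 31.9 CPM in corn oil, 44.9 and 27.9 in the CCl4 library and the rest, and 12.1 in JT003.

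NRF2 targets and glutathione transferases gave 3 of 23 lower and 1 higher (median -0.29), where 5.49% and 2.42% of all genes were. With the CCl4 library, 7 were lower (median -0.64), where 4.06% of all genes were. Gstm3 was at 18.2 CPM in corn oil, 581 in the CCl4 library, 359.7 in the rest and 109.8 in JT003, a log2 ratio of -1.71 (-1.78 to -1.65) against the rest and -2.40 against the CCl4 library, and Gsta1 at 3.84 CPM in corn oil, 88.7 and 51.7 in the CCl4 library and the rest, and 17.2 in JT003 (log2 ratio -1.58, interval -1.75 to -1.42). In both the CCl4 library was above the rest and JT003 lay between corn oil and the rest. Gstt2 was higher, at 86.1 CPM in corn oil, 57.1 and 34.9 in the CCl4 library and the rest, and 89 in JT003 (log2 ratio 1.35, interval 1.25 to 1.45), where JT003 was level with corn oil. Nqo1, the classical NRF2 target, was at 5.58 CPM in corn oil, 12.5 and 10.4 in the CCl4 library and the rest, and 7.33 in JT003, and was not called (log2 ratio -0.49, interval -0.78 to -0.23). Glutathione transferases have near-identical copies, and their split is uncertain.

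Acute phase genes showed how much the choice of CCl4 RNA mattered. Of 22, 1 was higher and 1 lower against the rest (median -0.38), near the 2.42% and 5.49% of all genes. With the CCl4 library, 8 were higher (median 0.52), where 4.32% of all genes were. Saa1, serum amyloid A, was at 286 CPM in corn oil, 259 in the CCl4 library, 702 in the rest and 654 in JT003, with JT003 level with the rest (log2 ratio -0.10, interval -0.13 to -0.07) and above the CCl4 library (1.34). Hamp, hepcidin, which blocks iron export, was higher against both, at 516 CPM in corn oil, 396 in the CCl4 library, 211 in the rest and 1296 in JT003, a log2 ratio of 2.62 (2.59 to 2.66) and 1.71. JT003 was the highest and the rest the lowest of the 4. Its near-identical copy Hamp2 was at 8.28 CPM in corn oil, 37.4 and 9.29 in the CCl4 library and the rest, and 62.1 in JT003 (log2 ratio 2.73, interval 2.58 to 2.91), and reads may be split between them. Orm2 was at 16.3 CPM in corn oil, 66.4 and 168 in the CCl4 library and the rest, and 71.9 in JT003, and was lower against the rest alone (log2 ratio -1.23, interval -1.31 to -1.15). Of 11 cytokines and chemokines, Cxcl14 was lower, at 1.8 CPM in corn oil, 4.67 and 18.3 in the CCl4 library and the rest, and 4.32 in JT003 (log2 ratio -2.06, interval -2.41 to -1.76), again through the rest. With the CCl4 library, 5 of 10 were higher, where 4.32% of all genes were. Il1b was at 1.32 CPM in corn oil, 0.438 and 0.702 in the CCl4 library and the rest, and 1.21 in JT003, and was not called against the rest (log2 ratio 0.71, interval -0.04 to 1.6).

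The rest stood apart most clearly in red blood cell genes. Of 5 compared, 4 were lower in JT003 than in the rest (median -2.43), where 5.49% of all genes were. Against the CCl4 library 0 of 3 were called. Hba-a1, an alpha globin gene, was at 200.2 CPM in corn oil, 102 in the CCl4 library, 553 in the rest and 103 in JT003, a log2 ratio of -2.43 (-2.49 to -2.36) against the rest and 0.01 against the CCl4 library. Slc4a1, the band 3 anion exchanger, had 10 counts in corn oil, 8 and 273 in the CCl4 library and the rest, and 8 in JT003 (log2 ratio -3.74, interval -5.27 to -3.04). The CCl4 library and JT003 were level in both genes, and the rest was the highest of the 4 pools. The summed level of the 7 listed genes was 445.6 CPM in corn oil, 244.5 in the CCl4 library, 955.9 in the rest and 233.5 in JT003, and how blood in the rest bears on other genes was not tested. Alas2 was not called (-0.37), and Hbb-b1 and Hbb-b2 had 8 counts at most in any pool. Globin genes are near-identical copies.

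The rest was also the highest of the 4 for some neutrophil markers and not for others. Of 12, 7 were lower in JT003 than in the rest (median -1.24), where 5.49% of all genes were. Against the CCl4 library none of 8 was lower and 2 were higher (median 0.55), where 4.06% and 4.32% of all genes were. S100a8 had 15 counts in corn oil, 21 and 167 in the CCl4 library and the rest, and 31 in JT003, a log2 ratio of -1.32 (-1.98 to -0.82), and Ngp had 2 counts in corn oil, 12 and 88 in the CCl4 library and the rest, and 15 in JT003 (log2 ratio -1.39, interval -2.40 to -0.70). Camp, Ltf and Mpo, granule proteins of immature neutrophils, had 38 counts at most in the rest and log2 ratios of -1.76, -1.34 and -1.73. Lcn2, a granule protein that hepatocytes also make in the acute phase, was at 12.5 CPM in corn oil, 132 and 859.8 in the CCl4 library and the rest, and 472 in JT003, and was not called (log2 ratio -0.87, interval -0.90 to -0.83). JT003 lay between the CCl4 library and the rest for S100a8, Ngp and Lcn2. Csf3r was level in JT003 and the rest (-0.07). Ly6g at 2.88 CPM in corn oil, 3.9 and 3.04 in the CCl4 library and the rest, and 3.83 in JT003 (0.32) and Cxcr2 at 8.52 CPM in corn oil, 8.33 and 7.62 in the CCl4 library and the rest, and 9.12 in JT003 (0.26) had less in the rest than in the CCl4 library or JT003, and none of the 3 was called. Of 13 endothelial markers 2 were lower, where 5.49% of all genes were. Vwf, made by large-vessel endothelium, was at 9.9 CPM in corn oil, 2.63 and 10.3 in the CCl4 library and the rest, and 4.42 in JT003 (log2 ratio -1.21, interval -1.57 to -0.90). Cd34 was at the threshold (log2 ratio -1.0, interval -1.47 to -0.61). The sinusoidal markers Stab1, Stab2, Clec4g and Fcgr2b had log2 ratios from 0.00 to 0.04 against the rest and from 0.61 to 0.78 against the CCl4 library, and Lyve1 was at -0.20 and -0.09. The median of the 13 markers was -0.05 against the rest and 0.61 against the CCl4 library, where none was called.

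**Figure D5:**
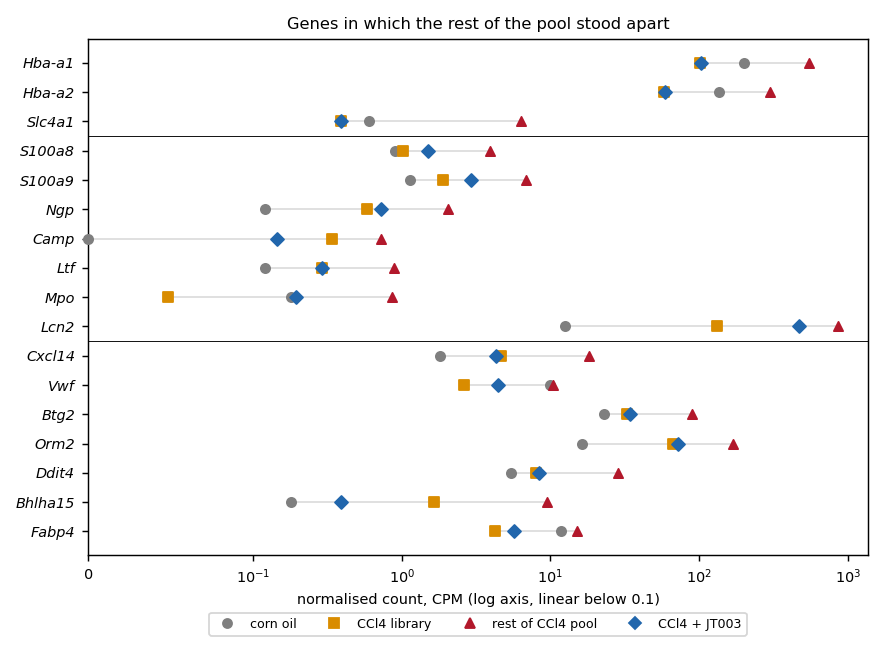
Normalised counts (CPM, x axis, log scale that is linear below 0.1) of red blood cell genes (top block), neutrophil genes (middle) and other genes (bottom) chosen after their values were seen. The rest of the CCl4 pool (red triangles) is the highest of the 4 in each gene, while JT003 (blue diamonds) and the CCl4 library (orange squares) are nearly level for Hba-a1 and Slc4a1.

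Bhlha15 (Mist1), a transcription factor of secretory cells, had the lowest log2 ratio among genes with at least 100 counts. It had 3 counts in corn oil, 34 and 406 in the CCl4 library and the rest, and 8 in JT003, a log2 ratio of -4.31 (-5.83 to -3.62) against the rest and -1.85 against the CCl4 library, and the rest was the highest by far. Slc34a2, a phosphate transporter, was at 1.92 CPM in corn oil, 11.1 and 5.4 in the CCl4 library and the rest, and 0.291 in JT003 (log2 ratio -3.82, interval -5.68 to -3.07), with the CCl4 library the highest. Among the highest, Serpina4-ps1, a pseudogene, was at 108 CPM in corn oil, 3.65 and 3.11 in the CCl4 library and the rest, and 28.9 in JT003 (log2 ratio 3.18, interval 2.94 to 3.50), and Nrep was at 5.4 CPM in corn oil, 5.6 and 4.33 in the CCl4 library and the rest, and 33.4 in JT003 (log2 ratio 2.92, interval 2.71 to 3.19). Both CCl4 values were alike in these. Gm15441 was at 43.4 CPM in corn oil, 9.25 and 7.95 in the CCl4 library and the rest, and 65.5 in JT003 (log2 ratio 3.03, interval 2.87 to 3.22). It lies antisense to Txnip, and since the strand of the libraries was not stated, reads of the pair cannot be told apart.

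Lists with few or no calls are given for completeness. Of 14 immediate early genes, 3 were lower, where 5.49% of all genes were. Egr1 was at 25.1 CPM in corn oil, 71.2 and 70.3 in the CCl4 library and the rest, and 16.2 in JT003 (log2 ratio -2.11, interval -2.28 to -1.95). Klf4 was at -1.21 (-1.76 to -0.77). Egr2 was at -1.62 (-8.25 to -0.15) on 15 counts in the rest and 1 in JT003, and had too few counts to be compared with the CCl4 library. Fos was at 2.22 CPM in corn oil, 1.8 and 1.99 in the CCl4 library and the rest, and 1.07 in JT003, and was not called. Of 13 lymphocyte markers 2 were higher, where 2.42% of all genes were. They were Ms4a1 and Cd3d, on 11 and 13 counts in JT003. With the CCl4 library, 4 of 9 were higher (median 0.89), where 4.32% of all genes were. Of 11 bile duct and injured epithelium markers 2 were lower, where 5.49% of all genes were. Afp, the fetal hepatocyte protein, was at 0.72 CPM in corn oil, 5.06 and 5.71 in the CCl4 library and the rest, and 0.776 in JT003 (log2 ratio -2.73, interval -3.71 to -2.15). Gpc3 was at -1.03, and Krt7 was not called. Cfd, an adipocyte gene, had 175 counts in corn oil, 2 and 17 in the CCl4 library and the rest, and 0 in JT003, and was at least 2.73-fold lower, and Fabp4 was lower (-1.39) against the rest alone. No interferon-inducible, MHC, oxidative phosphorylation or hepatocyte gene was called against the rest. The medians of these lists were 0.10 for 18 genes, 0.43 for 13, 0.32 for 18 and 0.13 for 17. Against the CCl4 library 4 of 18 interferon-inducible genes were higher (median 0.56), where 4.32% of all genes were. No MHC, oxidative phosphorylation or hepatocyte gene was called there.

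The receptors that JT003 was designed to bind were not called. Adipor1 was at 123 CPM in corn oil, 140.5 in the CCl4 library, 122 in the rest and 114 in JT003, a log2 ratio of -0.10 (-0.17 to -0.03). Adipor2 was at 476 CPM in corn oil, 498 and 371 in the CCl4 library and the rest, and 377 in JT003 (log2 ratio 0.02, interval -0.02 to 0.06). The catalytic AMPK subunits Prkaa1 and Prkaa2 were at -0.25 and 0.20, and none of the 13 receptor and AMPK genes compared was called (median 0.14). The largest ratios among them were 0.87 for Ppargc1b and -0.77 for Appl1, the adaptor of the receptors.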

How the data were processed

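Liver RNA of 6 mouse groups was sequenced on a BGISEQ-500, with 1 deposited library each, and 3 libraries and 1 pooled column were used here. The authors deposited expected counts per gene (estimated reads, not normalised), and the submitters' processing notes name HISAT, Bowtie2, RSEM and mm9 without versions. The pooled CCl4 column of a DEGseq comparison table also holds expected counts and the CCl4 library, both as inferred from its values. It is 2.97 times the CCl4 library, and 24 genes were below 0 after the subtraction, by 0.99 at most. Its 870 empty cells belong to genes listed in neither library, and its JT003 column differed from the JT003 library by 0.99 at most. The fold changes, p-values and q-values of the authors' tables were not used, nor were the deposited FPKM values.

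Counts were rounded, and library sizes scaled by TMM (edgeR 4.0.16, R 4.3.3; factors 1.07 for the rest, 1.06 for JT003, 1.02 for the CCl4 library and 0.859 for corn oil). Log2 ratios used a prior count of 2 in JT003, scaled to the depth of the rest, and 95% Clopper-Pearson intervals (scipy 1.17.1, Python 3.11.15). The call rule was tested on simulated data that held counting error alone. Genes named were the first of each of 39 lists, up to 4 called members with the largest ratio (2 where none was called), and the 10 highest and 10 lowest with at least 100 counts. Some genes that this rule names are not reported here. Other members and genes were named after their values were seen, as were the E-box and D-box. The members and lists were chosen with earlier results of these data known, and 10 list genes were not matched. A fold against 0 counts used a floor of 3 counts. Alternatives were total reads, DESeq2 1.42.0 size factors, other count minimums, prior counts, intervals and thresholds, and the whole pooled column.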

Additional observations from a re-analysis of the deposited data

How the results depend on the processing

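The counts of genes called in JT003 against the rest were 353 higher and 801 lower. They stayed within 1.5 times of this under total reads (343 and 822), DESeq2 size factors (357 and 786), at least 1 count (398 and 801), a prior count of 0.5 (380 and 836), a wider interval (243 and 614), no interval (358 and 889) and the whole pooled column (336 and 674). With at least 100 counts they were 155 higher and 493 lower, since fewer genes were compared, and with a log2 threshold of 1.5 they were 105 and 377, by construction. With the CCl4 library in place of the rest, a setting added with the data in view, there were 595 higher and 560 lower, so that 51.5% of the called genes were higher and not 30.6%, and the cause was not tested. None of the named genes changed sign under the settings other than that one while called. Of 104 named genes called, 35 were not called at a log2 threshold of 1.5, 15 with at least 100 counts, 13 with the whole pooled column and 10 with the wider interval. With the CCl4 library in place of the rest, 24 of 39 list medians moved, and 13 with the whole pooled column. A list median counted as moved when it shifted by more than its genes' median distance from middle to end of the counting interval. No paired analysis was possible because 1 library was deposited for each group, numbered in accession order. Depth limited genes with few counts, where intervals were wide, and no setting gives an error between mice.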

Other observations

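Genes outside the lists, chosen after their values were seen, gave further differences between JT003 and the rest. Of the tubulin genes, which encode the subunits of microtubules, some were lower and others not called. Tubb2a was at 74.3 CPM in corn oil, 256 and 187 in the CCl4 library and the rest, and 49.7 in JT003 (log2 ratio -1.91 against the rest and -2.36 against the CCl4 library). Tubb6 was at 10.1 CPM in corn oil, 67.5 and 44.7 in the CCl4 library and the rest, and 12.3 in JT003 (-1.86 and -2.45). Tuba1b was at 34 CPM in corn oil, 187 and 127 in the CCl4 library and the rest, and 49.1 in JT003 (-1.37 and -1.93). Tubb4b was at 134 CPM in corn oil, 270.3 and 193 in the CCl4 library and the rest, and 73.1 in JT003 (-1.40 and -1.89). Both CCl4 values were above corn oil in these 4 genes, and JT003 was below both. Tubb5, Tuba1a, Tuba1c and Tuba4a were not called against the rest, at -0.92, -0.82, -0.77 and -0.04. Tubulins are similar in sequence, and reads may be split between them.

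Alas1, which starts heme synthesis in the liver, was higher in JT003, at 816 CPM in corn oil, 497 and 296 in the CCl4 library and the rest, and 1299 in JT003 (2.13 against the rest and 1.39 against the CCl4 library). Nampt, the rate-limiting enzyme of NAD salvage, was at 41.2 CPM in corn oil, 26.6 and 34.3 in the CCl4 library and the rest, and 112 in JT003 (1.70 and 2.06), and Upp2, a uridine phosphorylase, at 224 CPM in corn oil, 38.2 and 72.2 in the CCl4 library and the rest, and 264 in JT003 (1.87 and 2.79). JT003 was the highest of the 4 values for all 3 genes.

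Igfbp1, a secreted binding protein of insulin-like growth factors, was lower, at 136 CPM in corn oil, 182 and 505 in the CCl4 library and the rest, and 104 in JT003 (-2.28 against the rest), and Lpl, lipoprotein lipase, at 17.8 CPM in corn oil, 70.02 and 160.5 in the CCl4 library and the rest, and 39.9 in JT003 (-2.0). Neither was called against the CCl4 library (-0.81 and -0.81). The beta globin genes that held most of the beta globin reads, Hbb-bs at 198 CPM in corn oil, 79.7 and 576 in the CCl4 library and the rest, and 88 in JT003 and Hbb-bt at 53.2 CPM in corn oil, 21.4 and 144 in the CCl4 library and the rest, and 19.2 in JT003, had the same order as the alpha globins, with the rest the highest and JT003 and the CCl4 library nearly level.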
